A study of Mus musculus with 20 samples.

Results

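The genes described here encode subunits of oxidative phosphorylation, the chain of complexes I to V in the inner mitochondrial membrane. They were chosen by name: every gene of the array whose symbol begins as an Nduf, Sdh, Uqcr, Cox4 to Cox8 or Atp5 subunit was taken, which gave 80 of 27962 gene names. Of these, 35 were filed under complex I, 4 under complex II, 7 under complex III, 18 under complex IV and 16 under complex V. Names do not always follow function. Ndufa4 is now placed in complex IV, Cox7a2l acts in the assembly of supercomplexes, Cox4nb is now Emc8 of a membrane insertion complex, and Atp5s is now Dmac2l, an assembly factor. Without these, 76 genes remained, and the median over the whole set moved in each comparison below by less than the spread between arrays.

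Complexes I and II pass electrons from NADH and succinate to ubiquinone, complex III hands them to cytochrome c, and complex IV, cytochrome c oxidase, reduces oxygen with them. Complexes I, III and IV pump protons, and complex V, the ATP synthase, uses the gradient to make ATP. Slow postural muscle such as the soleus is rich in mitochondria, whereas the gastrocnemius is a mixed muscle with many fast glycolytic fibres. Several subunits of complex IV exist in a widespread form and in a heart and skeletal muscle form, made by separate genes.

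RNA came from male ICR mice aged 6 months, housed 1 to a cage under a reversed light cycle. No allele or agent other than the treatment is named in the labels. In 5 mice the tail was raised so that the head pointed down at 45 degrees and the hind limbs bore no load for 24 h (hind-limb suspension, HLS), and 5 control mice moved freely for the same 24 h. Soleus and gastrocnemius of each mouse were hybridised to separate one-colour Agilent arrays, so each of the 4 groups (gastrocnemius control, gastrocnemius HLS, soleus control and soleus HLS) held 5 arrays and the 20 arrays came from 10 animals. A level is log2 of the processed intensity minus log2 of the array's own 75th percentile, and a difference is given on the same log2 scale ± SE. Tests are limma's, two-sided, with Benjamini-Hochberg adjustment over the 25536 genes kept, and a call means adjusted p below 0.05. All 80 genes were well above background on all 20 arrays, and none was saturated. Whole muscle was measured, so fewer cells of a type and less RNA per cell cannot be told apart.

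Skeletal muscle markers were high on all arrays, with a summed level of 11.12 to 11.91 over 11 of 11 listed genes. The 9 measured slow-fibre markers summed to 10.83 to 11.18 in control soleus and 8.77 to 9.49 in gastrocnemius. Soleus HLS array 1 stood apart at 9.73, with the other soleus HLS arrays at 10.67 to 11.10, so the main results that involve soleus after HLS are also given without it. Arrays lay on 6 slides and were scanned on 3 days. Soleus control and HLS arrays met on slide 5 only (1 control and 3 HLS). Gastrocnemius control and HLS arrays met on slide 2 only (3 controls and 1 HLS). For the change after HLS, a fit with slide as a fixed block therefore rests on those few arrays. No slide held both muscles, and the control muscles were scanned on different days, so muscle cannot be told apart from slide and, in controls, from scan day. The spike-in probes, read relative to the 75th percentile, averaged 2.55 ± 0.08 in gastrocnemius control, 1.77 ± 0.13 in gastrocnemius HLS, 1.49 ± 0.05 in soleus control and 1.75 ± 0.20 in soleus HLS (SD, n = 5). All differences below are relative to the percentile, not to these spike-ins.

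Promoter sequences of the genes on which the results turn are shown first, because nuclear factors known for control of these genes, among them the ETS factor GABP and the oestrogen-related receptors (ERR), bind close to the start. The 250 bases before the start are from RefSeq on GRCm38.p6, 5′ to 3′ on the gene's strand. They belong to the 2 complex I genes that were lower after HLS in soleus, Ndufb3 (chr1:58586147-58586396, plus strand) and Ndufb5 (chr3:32736813-32737062, plus strand). Next is the complex IV gene that was lower in gastrocnemius, Cox6a1 (chr5:115348959-115349208, minus strand). The last belongs to a c-subunit gene of ATP synthase that was higher in soleus than in gastrocnemius, Atp5g3 (chr2:73911327-73911576, minus strand). Capitals mark matches on either strand to the ETS core CCGGAAG and the ERR element TGACCTT.
Ndufb3: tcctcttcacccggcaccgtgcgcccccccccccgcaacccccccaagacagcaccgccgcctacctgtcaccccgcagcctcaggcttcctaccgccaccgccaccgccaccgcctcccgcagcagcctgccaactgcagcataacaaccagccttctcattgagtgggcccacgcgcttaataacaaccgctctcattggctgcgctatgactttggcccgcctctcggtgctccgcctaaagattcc
Ndufb5: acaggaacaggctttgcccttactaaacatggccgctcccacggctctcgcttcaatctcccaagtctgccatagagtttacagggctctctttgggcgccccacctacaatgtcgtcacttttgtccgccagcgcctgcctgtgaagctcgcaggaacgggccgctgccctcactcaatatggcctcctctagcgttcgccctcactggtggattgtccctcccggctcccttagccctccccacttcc
Cox6a1: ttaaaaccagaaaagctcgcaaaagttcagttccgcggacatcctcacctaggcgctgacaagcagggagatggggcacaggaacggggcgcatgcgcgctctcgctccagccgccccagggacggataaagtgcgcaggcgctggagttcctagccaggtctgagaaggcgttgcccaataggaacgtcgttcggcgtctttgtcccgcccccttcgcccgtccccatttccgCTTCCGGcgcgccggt
Atp5g3: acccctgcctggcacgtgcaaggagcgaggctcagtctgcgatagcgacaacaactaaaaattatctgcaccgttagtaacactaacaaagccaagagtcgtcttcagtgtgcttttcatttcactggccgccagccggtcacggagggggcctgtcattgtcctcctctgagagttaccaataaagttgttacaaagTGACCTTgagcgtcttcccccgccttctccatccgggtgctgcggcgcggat
Cox6a1 held the ETS core, on the opposite strand, at position -16, and Atp5g3 held the ERR element at -52. None of these letters occurred in the windows of Ndufb3 and Ndufb5, which says nothing about the factors themselves. The windows of Uqcrfs1 and Cox8a, also called higher in control soleus, are not printed and held 0 whole matches. Cox8a had the ETS core on the opposite strand at -5, running past the start, and again at 32, after the start.

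Over windows of 300 bases (250 before to 50 after the start), 65 of the 80 genes had an entry. The ETS core occurred in 16 of the 65 (24.6%), against 9.93% of the 27025 genes in the table. The ERR element occurred in 8 (12.3%, against 5.38%). At least 1 of the 2 motifs was present in 20 (30.8%, against 14.8%). By complex, these were 7 of 31 genes of complex I, 2 of 3 of complex II, 2 of 4 of complex III, 3 of 12 of complex IV and 6 of 15 of complex V. The share was 35% (7 of 20) among genes called higher in control soleus than in control gastrocnemius and 28.9% (13 of 45) among the others. A match is a description of the letters and not a bound site.

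The first question was whether 24 h without load altered these transcripts in the soleus. Most values for the 80 genes lay close to control. Ndufb5 and Ndufb3, accessory subunits of the membrane arm of complex I, fell, and no gene rose, although without soleus control array 2 Cox8c was called higher (0.51, adjusted p = 0.0255). Thus 2 of 80 (2.5%) were called, both lower, where 5.91% of all genes tested were called (3.52% lower and 2.38% higher). At an unadjusted p below 0.05 there were 6 of the 80, against 4567 of the 25536 genes tested. The median difference was -0.01 over the 80 genes and 0.05 over all genes, with 39 genes above 0 and 41 below. The 95% interval of 68 of the 80 lay within 0.5 log2 units of 0. The probes of 75 of the 80 lay among the brightest 10% of probes used. Of the 2479 other genes there, 15.2% were called, against 2.67% of those 75.

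Ndufb5 stood at 3.89, 3.72, 3.71, 4.11 and 3.75 on the control soleus arrays 1 to 5 and at 3.44, 3.52, 3.22, 3.69 and 3.23 on the HLS arrays 1 to 5. All HLS arrays were below all control arrays. The difference was -0.42 ± 0.10 (95% interval -0.63 to -0.20, 0.75-fold, adjusted p = 0.0202). Ndufb3 stood at 6.34, 6.59, 6.26, 6.25 and 6.31 in control soleus and at 5.90, 6.17, 6.07, 6.03 and 6.04 after HLS, again without overlap. Its difference was -0.31 ± 0.09 (95% interval -0.49 to -0.12, 0.807-fold, adjusted p = 0.0437). Ndufa8, another accessory subunit of complex I, was the third gene whose groups did not overlap, at -0.22 (adjusted p = 0.124), where 5.04% of all genes did not. Without soleus HLS array 1, Ndufb5 stood at -0.42 (adjusted p = 0.0319) and Ndufb3 at -0.27 (adjusted p = 0.101). Over 24 alternative settings the adjusted p of Ndufb5 ranged from 0.00734 to 0.862 and missed the threshold in 7, and that of Ndufb3 ranged from 0.023 to 0.88 and missed it in 15. Within scan day 2, which held 5 control and 3 HLS soleus arrays, the differences were -0.44 (adjusted p = 0.106) and -0.31 (adjusted p = 0.294). With slide as a block, which here sets 1 control array against 3 HLS arrays, they were -0.36 and -0.27.

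**Figure D1:**
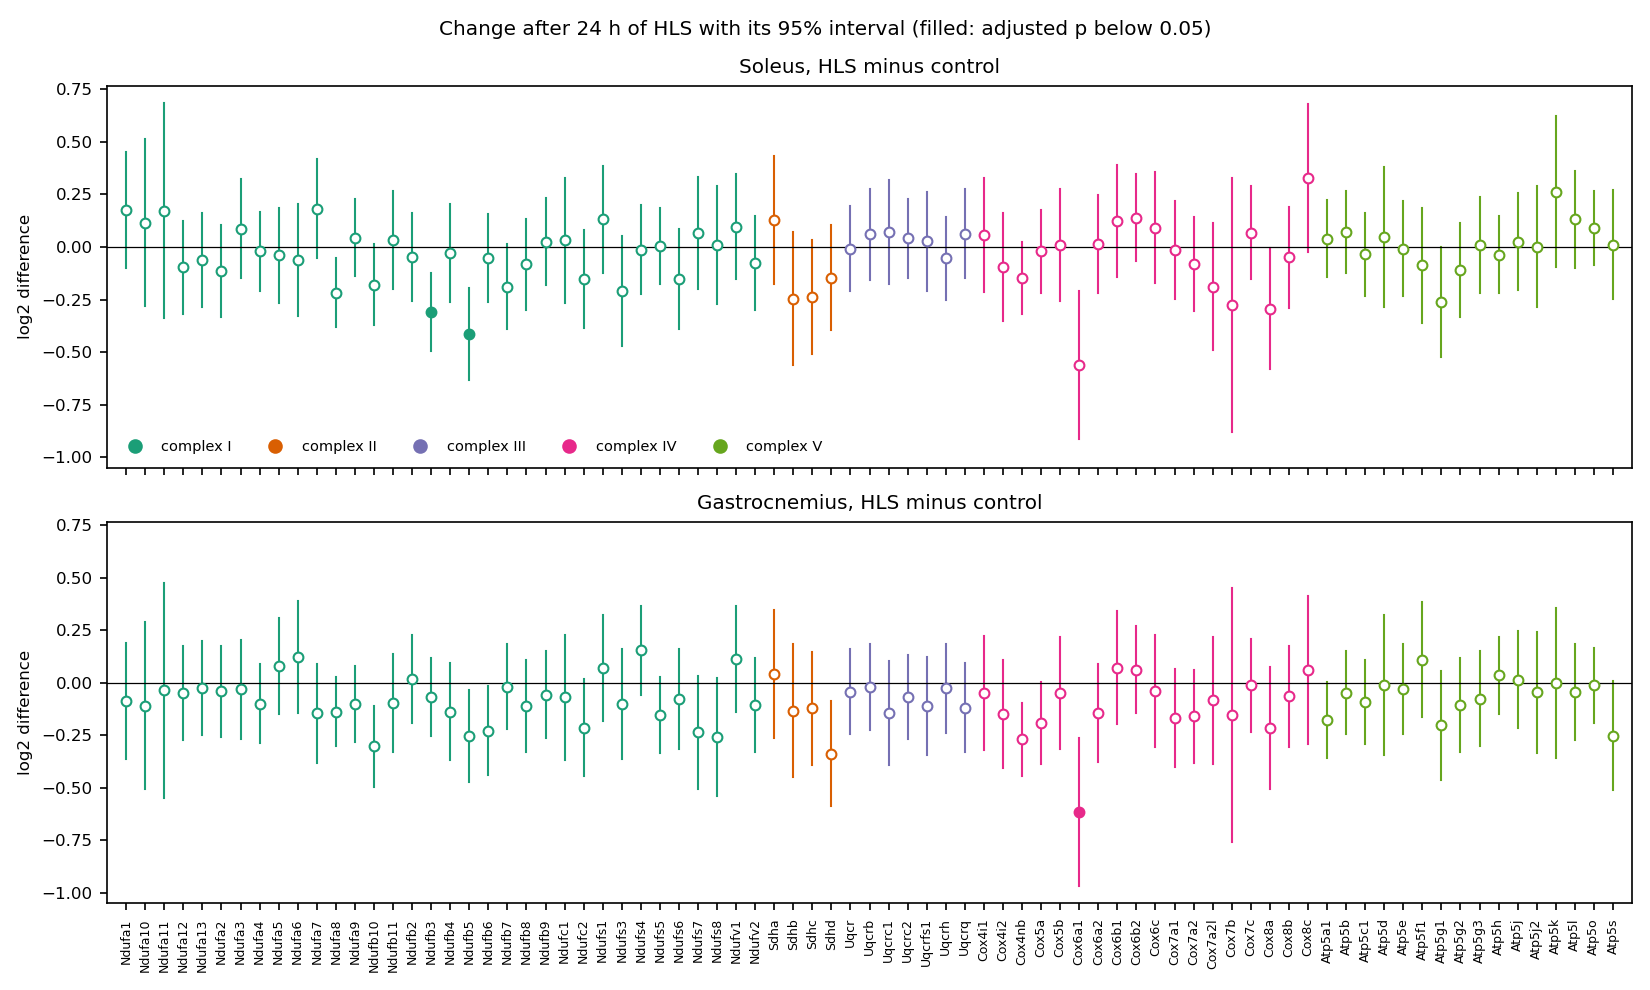
Difference between HLS and control (log2, with 95% interval) for 79 of the 80 genes, coloured by complex, in soleus above and gastrocnemius below; filled points have an adjusted p below 0.05 by limma. Most points lie within 0.5 of 0, Ndufb3 and Ndufb5 are filled in soleus, and Cox6a1 is filled in gastrocnemius.

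The subunits taken as core, not all of which carry out electron transfer or catalysis, did not pass the test in soleus. Genes of the mitochondrial genome, such as mt-Co1 of complex IV, lay outside the name rule. Ndufv1, which holds the NADH site, stood at 0.10 ± 0.12, the iron-sulfur subunit Ndufs1 at 0.13 ± 0.12 and Ndufs3 at -0.21 ± 0.13. In complex II, the flavoprotein Sdha stood at 0.13 ± 0.15 and the iron-sulfur subunit Sdhb at -0.25 ± 0.15. The membrane anchors Sdhc and Sdhd stood at -0.24 ± 0.13 and -0.15 ± 0.12. The core proteins Uqcrc1 and Uqcrc2 of complex III stood at 0.07 ± 0.12 and 0.04 ± 0.09, and the Rieske iron-sulfur protein Uqcrfs1 at 0.03 ± 0.11. In complex IV, Cox4i1, Cox5a and Cox5b stood at 0.06, -0.02 and 0.01, the first over 4 HLS arrays because its spot was marked on the other and left out. Atp5a1 and Atp5b, the alpha and the catalytic beta subunit of ATP synthase, stood at 0.04 ± 0.09 and 0.07 ± 0.09.

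By complex, the median in soleus was -0.03 for complex I, -0.19 for complex II, 0.04 for complex III, -0.02 for complex IV and 0.01 for complex V. The range was widest in complex IV, from Cox6a1 at -0.56 (adjusted p = 0.0527) to Cox8c, a dim probe for a form known from testis, at 0.33 (adjusted p = 0.325). In complex V the ends were the c-subunit gene Atp5g1 at -0.26 and Atp5k at 0.26. Without soleus HLS array 1 the medians of complexes I to V were -0.07, -0.25, 0.01, -0.05 and -0.04, and none of the core subunits above was called (lowest adjusted p = 0.135).

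Complex medians on single arrays showed the same spread. Each gene was set as a deviation from its mean over the 20 arrays, and the median over the genes of a complex was taken on each array. For complex I this was 0.10 ± 0.13 in control soleus and 0.08 ± 0.15 after HLS (SD, n = 5), with arrays from -0.07 to 0.27 and from -0.15 to 0.25. Complex II stood at 0.06 ± 0.17 and -0.08 ± 0.26, complex III at 0.12 ± 0.14 and 0.17 ± 0.13, complex IV at 0.13 ± 0.15 and 0.13 ± 0.08, and complex V at 0.12 ± 0.11 and 0.12 ± 0.14. The groups overlapped in every complex.

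**Figure D2:**
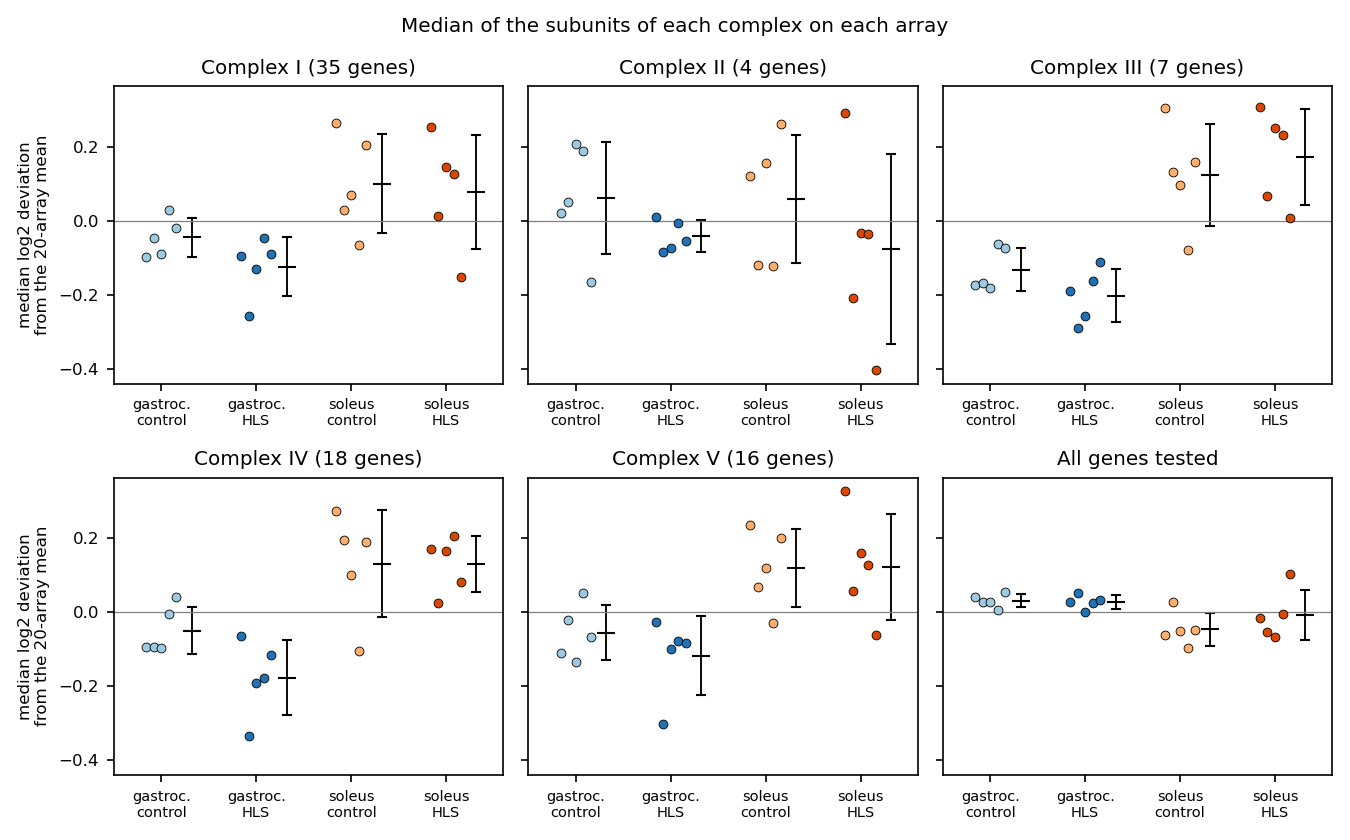
Median log2 deviation of each complex's genes from their 20-array means, with 1 point per array, 5 arrays per group, and a bar for the mean ± SD; the last panel shows all 25536 genes tested. Control and HLS arrays of each muscle overlap in all 5 complexes, and complexes III and IV separate the muscles after HLS, with gastrocnemius arrays at -0.29 to -0.11 and -0.34 to -0.06 and soleus arrays at 0.01 to 0.31 and 0.02 to 0.21.

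The same question was asked of the gastrocnemius. Cox6a1, the widespread form of a regulatory subunit of cytochrome c oxidase, fell, and it was the only gene called of 80 (1.25%), where 3.16% of all genes were called (2.01% lower and 1.15% higher). The 807 genes behind that share became 450 without gastrocnemius control array 2 and 513 without HLS array 5. There were 6 of the 80 at an unadjusted p below 0.05, against 3720 of the 25536 genes tested. Differences were below 0 for 66 of the 80 genes, with a median of -0.08 against 0.01 over all genes. Of the 2479 other genes among the brightest 10%, 1487 were below 0, with a median of -0.06, and 8.71% were called. The median was -0.09 for complex I, -0.13 for complex II, -0.07 for complex III, -0.11 for complex IV and -0.04 for complex V. The interval of 70 genes lay within 0.5 log2 units of 0. The median was -0.04 after quantile normalization and -0.004 with scan day as a block, in which the 5 controls are set against the 1 HLS array of the same day.

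Cox6a1 stood at 5.88, 6.20, 6.03, 6.08 and 6.56 on the control gastrocnemius arrays 1 to 5 and at 5.59, 5.37, 5.64, 5.51 and 5.56 on the HLS arrays. The groups did not overlap. The difference was -0.62 ± 0.17 (95% interval -0.97 to -0.26, 0.652-fold, adjusted p = 0.0493). In soleus it stood at 6.92, 7.07, 6.58, 6.96 and 6.45 in controls and at 5.55, 6.35, 6.40, 6.58 and 6.29 after HLS, where HLS array 4 reached the lower controls. That difference was -0.56 ± 0.17 (adjusted p = 0.0527), or -0.39 (adjusted p = 0.125) without soleus HLS array 1. It passed in soleus under normexp correction (0.00892), median scaling (0.0345), slide as a random block (0.0372) and a stricter filter (0.0387), and without control array 5 (0.0291) or HLS array 4 (0.0294), all adjusted p. In gastrocnemius the adjusted p ranged from 0.0162 to 0.681 over 23 alternative settings and missed the threshold in 16. With scan day as a block, which for this muscle sets the 5 controls against HLS array 1, the difference was -0.56 (adjusted p = 0.681), and with slide as a block it was -0.63 (adjusted p = 0.681).

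Groups of 8 further genes did not overlap in gastrocnemius, without a call, where 7.41% of all genes did not overlap. They included the complex I accessory subunits Ndufb10 at -0.30 (adjusted p = 0.0856) and Ndufb5 at -0.25 (adjusted p = 0.242), and the membrane anchor Sdhd at -0.34 (adjusted p = 0.148). Cox4nb, no subunit, stood at -0.27 (adjusted p = 0.0836). The subunits taken as core again did not pass: Ndufv1 stood at 0.11, Ndufs1 at 0.07, Sdha at 0.04, Sdhb at -0.13, Uqcrc1 at -0.15, Uqcrfs1 at -0.11, Cox4i1 at -0.05, Cox5a at -0.19, Atp5a1 at -0.18 and Atp5b at -0.05.

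**Figure D3:**
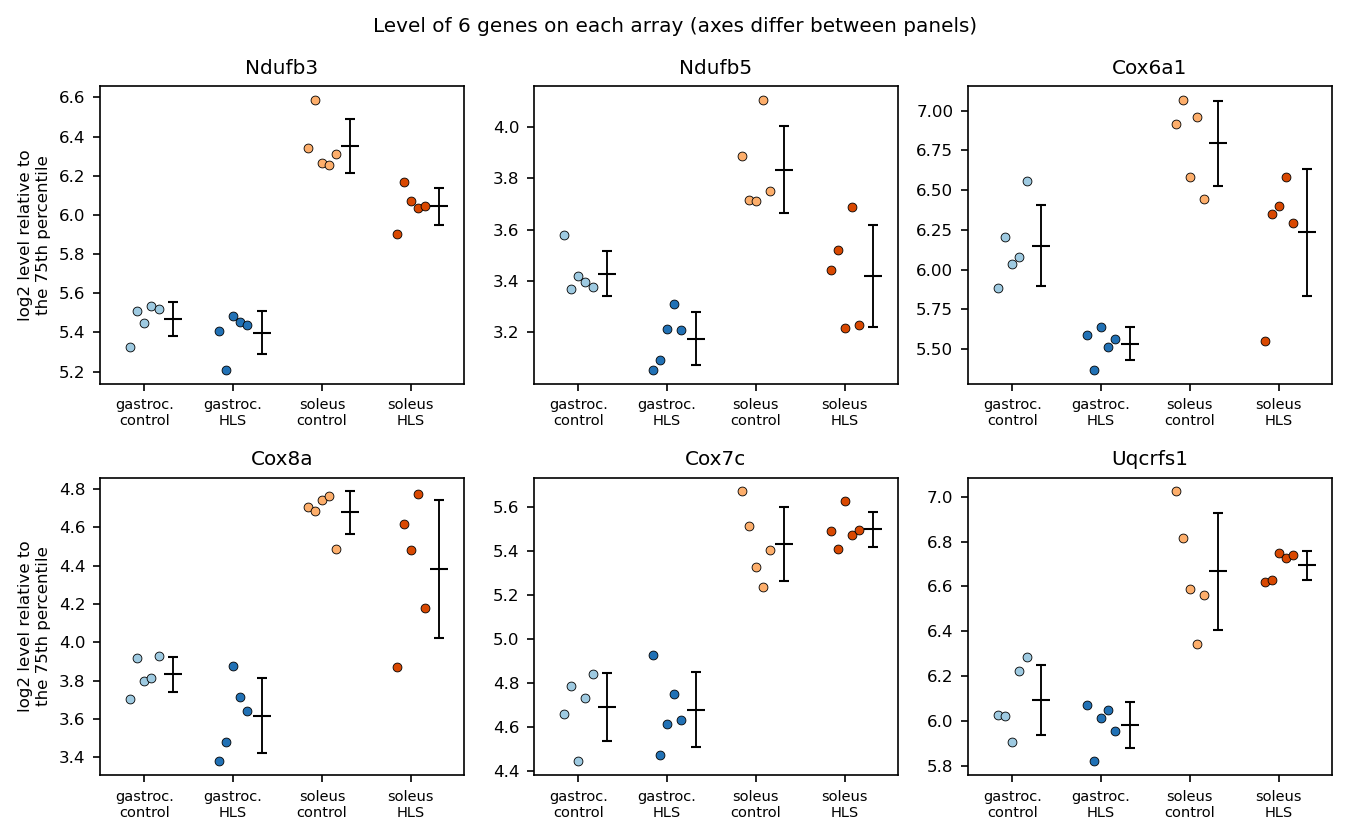
Level of 6 genes (log2 relative to the array's 75th percentile) on each array, with 5 arrays per group and a bar for the mean ± SD; axes differ between panels. Ndufb3 and Ndufb5 show HLS soleus below control soleus, Cox6a1 shows lower HLS values in both muscles, and Cox8a, Cox7c and Uqcrfs1 are higher in soleus than in gastrocnemius.

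The response to HLS was then compared between the muscles as the soleus difference minus the gastrocnemius difference. None of the 80 genes was called, where 0.00783% (2) of all genes were. Without soleus HLS array 1 the count was 13 of all genes and still 0 of the 80, and it was 5 and 4 of all genes without soleus control array 2 or 5 and 1 without most other single arrays. The lowest adjusted p among them was 0.875 by limma, and 0 of the 80 had an unadjusted p below 0.05, against 1465 of all genes. Ndufa7, an accessory subunit of complex I, had the highest value at 0.33 (95% interval -0.01 to 0.66). The interval of 57 of the 80 genes lay within 0.5 log2 units of 0. For Cox6a1 the value was 0.05 (95% interval -0.44 to 0.55), or 0.22 without soleus HLS array 1, and for Ndufb3 it was -0.24 (95% interval -0.50 to 0.02). A difference of either gene's response between the muscles was therefore not detectable with 5 arrays per group.

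The muscles themselves were compared in the freely moving controls. Genes of complexes I, III, IV and V were more often higher in soleus than lower, and those of complex II were called in neither direction, with 0 at an unadjusted p below 0.05. Under other settings, Sdhc was called lower in control soleus by the mean of its probes (-0.45, adjusted p = 0.00104) and Sdha after quantile normalization (-0.39, adjusted p = 0.0309). The brighter Sdhc probe, at a mean level of 4.12, gave -0.04, and the dim one, at -2.73, gave -0.87. Of the 80 genes, 26 were higher in soleus and 1 was lower (33.8% in all), where 12.6% of all genes were higher and 20.9% lower (33.5% in all). At an unadjusted p below 0.05 there were 34 of the 80, against 11160 of the 25536 genes tested. By complex, 11 of 35 genes of complex I were higher, 0 of 4 of complex II, 3 of 7 of complex III, 6 of 18 of complex IV and 6 of 16 of complex V. The median was 0.13 against -0.06 over all genes, and it was 0.15, 0.01, 0.22, 0.22 and 0.12 for complexes I to V. For the 75 genes with the brightest probes the median was 0.17, and for the 2479 others of like brightness it was 0.16. Of those others, 799 were higher in soleus and 253 lower (42.4% in all). After quantile normalization the split of the 80 was 19 higher and 7 lower with a median of 0.04, and after median scaling, which moved the median of all genes from -0.06 to 0.11, it was 37 higher and 0 lower with a median of 0.30.

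Ndufb3 had the highest difference. It stood at 5.32, 5.51, 5.45, 5.54 and 5.52 on the control gastrocnemius arrays, all below the control soleus values given above. Soleus was 0.88 ± 0.09 higher (1.85-fold, adjusted p = 2.02e-06). Cox8a, the widespread form of a small subunit of cytochrome c oxidase, stood at 3.71, 3.92, 3.80, 3.81 and 3.93 in gastrocnemius and at 4.70, 4.69, 4.75, 4.77 and 4.49 in soleus. It was 0.84 ± 0.14 higher in soleus (1.8-fold, adjusted p = 0.000155). Cox7c, another small subunit of that complex, stood at 4.66, 4.79, 4.44, 4.73 and 4.84 in gastrocnemius and at 5.67, 5.51, 5.33, 5.24 and 5.41 in soleus. It was 0.74 ± 0.11 higher (1.67-fold, adjusted p = 4.21e-05). In none of the 3 did the muscles overlap. Among controls this held for 18 of the 80 genes, and for 21.6% of all genes tested.

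In complex III, the Rieske protein Uqcrfs1 stood at 6.03, 6.02, 5.91, 6.23 and 6.28 in control gastrocnemius and at 7.03, 6.82, 6.59, 6.34 and 6.56 in control soleus. It was 0.57 ± 0.11 higher in soleus (1.49-fold, adjusted p = 0.000714), and the small subunit Uqcrq was 0.42 ± 0.10 higher. In complex V, Atp5g3, 1 of the genes for the proton-carrying c subunit, stood at 7.64, 7.72, 7.73, 7.88 and 7.93 in gastrocnemius and at 8.63, 8.40, 8.24, 8.20 and 8.18 in soleus. It was 0.55 ± 0.11 higher (1.47-fold, adjusted p = 0.000778), whereas Atp5g1 and Atp5g2, which encode the same mature protein, stood at 0.07 and 0.11 (adjusted p = 0.691 and 0.447). The catalytic subunit Atp5b was 0.48 ± 0.09 higher by its brightest probe, but its other probes gave -0.08 and 0.01.

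Further complex I genes called higher in soleus included the accessory subunits Ndufb7 at 0.57, Ndufb10 at 0.54 and Ndufb11 at 0.51. The catalytic core of that complex was not called: Ndufv1 stood at 0.17, Ndufv2 at 0.11, Ndufs1 at 0.00 and Ndufs3 at 0.30 (adjusted p = 0.0751). In complex II the values ran from -0.23 for Sdha to 0.13 for Sdhb. Cox8c, at -0.48 (adjusted p = 0.0325), was the single gene called lower. For the 22 genes with further probes, all well above background, the brightest probe gave a median of 0.06 and the next probe -0.10, with the same sign in 16.

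With scan day as a block, the median in controls was 0.24 and most calls were lost. The control muscles shared no scan day. The day effect in that fit therefore came only from gastrocnemius HLS array 1, set against the other gastrocnemius HLS arrays. The 10 white and brown adipocyte markers summed to 7.58 to 8.80 in control soleus and to 6.47 to 6.73 in control gastrocnemius, and 8 of the 10 were called higher in soleus, with Ucp1 lower. Summed endothelial markers were also higher in control soleus (4.66 to 4.97 against 4.40 to 4.59). So were fibroblast and tendon markers (9.29 to 9.64 against 9.04 to 9.27), whereas macrophage and nerve sums overlapped. The part of these cell types in the differences was not tested.

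After HLS, the muscles differed in the same direction: 28 of the 80 genes were higher in soleus and 0 lower (35% in all), where 13.3% of all genes were higher and 17.6% lower (30.9% in all). Of the 2479 other genes with the brightest probes, 799 were higher in soleus and 212 lower (40.8% in all). Controls and HLS animals are different mice, so these arrays are separate from those above. Of the 28 genes, 21 were among the 26 called in controls. Cox7c stood at 5.49, 5.41, 5.63, 5.47 and 5.49 in soleus and at 4.93, 4.47, 4.61, 4.75 and 4.63 in gastrocnemius, with no overlap and a difference of 0.82 ± 0.11 (adjusted p = 2.02e-05). Muscles did not overlap after HLS for 23 of the 80 genes, where 17.8% of all genes did not. Cox8a was 0.77 higher, Uqcrfs1 0.71, Cox6a1 0.70, Ndufb10 0.66, Ndufb3 0.65 and Atp5b 0.60, with the other probes of Atp5b at 0.15 and 0.02. For the 22 genes with further probes, the brightest probe gave a median of 0.15 and the next -0.01, with the same sign in 12. By the mean of its probes, Sdhc was lower (-0.29, adjusted p = 0.0247), with its brighter probe at -0.15 and its dim one at -0.42. By complex, 9 genes of complex I, 0 of complex II, 4 of complex III, 9 of complex IV and 6 of complex V were higher, with medians of 0.20, -0.06, 0.28, 0.26 and 0.22. Without soleus HLS array 1, 25 were higher and 2 lower, and the medians of complexes I to V were 0.15, -0.17, 0.25, 0.25 and 0.19. Within scan day 2, which held 4 gastrocnemius and 3 soleus HLS arrays, 22 were called. The median over the 80 genes was 0.21, against -0.03 over all genes and 0.16 over the other genes with the brightest probes. It was 0.05 after quantile normalization, where 21 were higher and 2 lower, and 0.35 after median scaling.

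**Figure D4:**
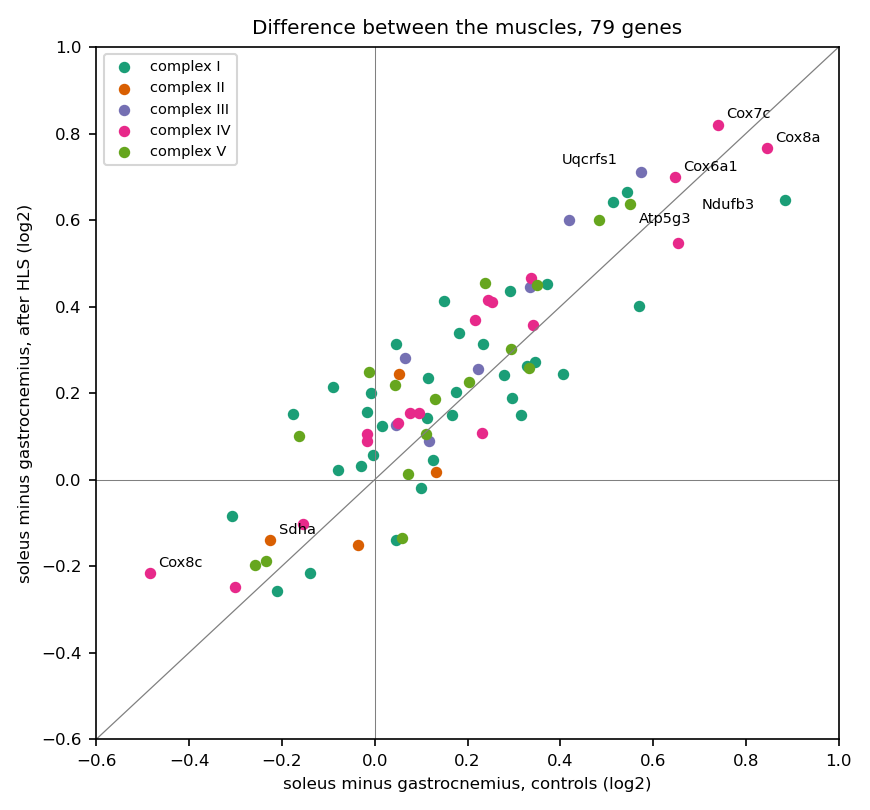
Soleus minus gastrocnemius (log2) in controls on the horizontal axis and after HLS on the vertical axis, with 1 point per gene for 79 of the 80 genes, coloured by complex; the diagonal marks equal differences. Ndufb3 (0.88 and 0.65), Cox8a (0.84 and 0.77) and Cox7c (0.74 and 0.82) lie farthest to the upper right.

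Complex IV also allows a comparison of paired forms. The log2 ratio of the restricted form to the widespread form was taken on each array. That form is the heart and skeletal muscle form except for Cox4i2, known from lung. The 4 pairs were compared in 4 contrasts by exact permutation tests (two-sided, 16 tests, with p adjusted over the 16). In the contrasts between muscles, both groups came from the same mice. The permutations did not keep the muscles of a mouse paired, so those p-values ignore the pairing. Ratios were centred on their mean over the arrays, since levels of different probes are not comparable. The ratio of Cox6a2 to Cox6a1 stood at 0.21, -0.31, -0.13, 0.10 and -0.20 in control gastrocnemius and at 0.46, 0.41, 0.35, 0.31 and 0.51 after HLS. The groups did not overlap, and the ratio was 0.47 higher after HLS (exact p = 0.00794, the smallest that 5 against 5 arrays can give, adjusted p = 0.0423). In soleus it was 0.58 higher (exact p = 0.0159, adjusted p = 0.0635), or 0.41 (adjusted p = 0.127) without soleus HLS array 1. Cox6a2 itself stood at -0.14 in gastrocnemius and 0.01 in soleus, so Cox6a1 carried most of the shift in the ratio.

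The ratio of Cox8b to Cox8a, muscle form over widespread form, was 0.50 lower in control soleus than in control gastrocnemius, at -0.06, -0.23, -0.55, -0.76 and -0.15 against 0.31, 0.14, 0.09, 0.18 and 0.04 (difference -0.50, exact p = 0.00794, adjusted p = 0.0423). After HLS the difference was -0.41 (adjusted p = 0.254), and -0.57 (adjusted p = 0.0254) without soleus HLS array 1. Cox8b itself was higher in soleus than in gastrocnemius, by 0.34 in controls and 0.36 after HLS. Cox8a was higher by more, at 0.84 and 0.77, so the ratio was lower. The ratio of Cox7a1 to Cox7a2 was 0.24 higher in soleus than in gastrocnemius after HLS, with no overlap (exact p = 0.00794, adjusted p = 0.0423), and 0.17 higher in controls (exact p = 0.198, adjusted p = 0.353). Cox4i2 over Cox4i1, measured on 4 of 5 arrays in gastrocnemius control and soleus HLS, passed in none of the 4 contrasts by the exact test, with an unadjusted p of at least 0.135. After quantile normalization the first ratio stood at an adjusted p of 0.0635 in gastrocnemius, the second at 0.0635 in controls and the third at 0.19.

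**Figure D5:**
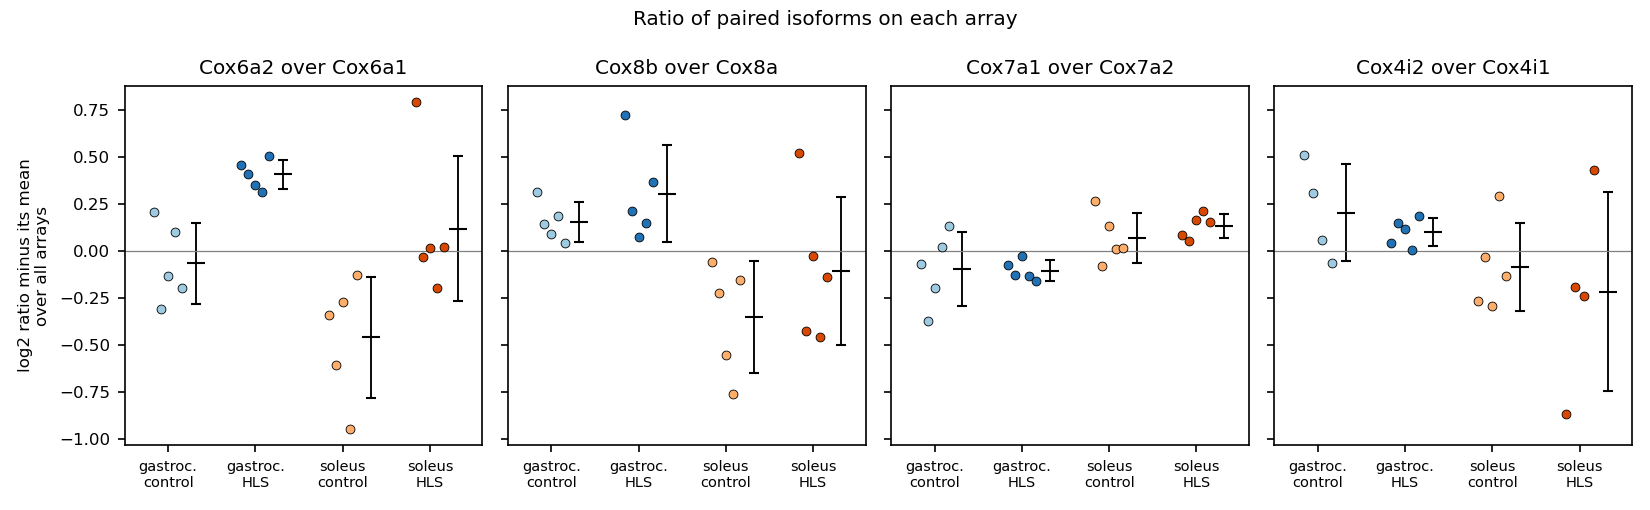
Log2 ratio of paired complex IV genes on each array minus its mean over all arrays, with up to 5 arrays per group and a bar for the mean ± SD. Cox6a2 over Cox6a1 is higher after HLS in gastrocnemius (0.31 to 0.51 against -0.31 to 0.21), soleus HLS array 1 stands high at 0.79, and Cox8b over Cox8a is lower in control soleus than in control gastrocnemius.

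Genes that act on these complexes were followed as lists. Of 17 transcriptional regulators of mitochondrial genes, 4 fell in soleus after HLS, 0 rose, and the median was -0.16, where 3.52% of all genes fell. In gastrocnemius 4 fell, 0 rose, and the median was -0.06, where 2.01% of all genes fell. These shares also stand against the counts of the lists below. Perm1 (2310042D19Rik in the files), a muscle regulator that acts with the ERR receptors and PGC-1, stood at 3.99, 4.09, 3.89, 3.43 and 3.83 in control soleus and at 2.05, 1.85, 1.54, 1.93 and 0.72 after HLS. It fell by 2.23 on the log2 scale (SE 0.19, adjusted p = 6.51e-07), and in gastrocnemius it fell by 1.59 (SE 0.19, adjusted p = 8.19e-05), without overlap in either muscle. Within scan day 2 the soleus difference was -2.03 (adjusted p = 8.92e-05), and in gastrocnemius the scan-day block gave -1.60 (adjusted p = 0.0621). The ERR gene Esrrb fell in both muscles (-0.90 and -0.64), as did Ppara, a receptor that drives fatty acid oxidation (-1.12 and -1.38). Ppargc1a, the gene of PGC-1 alpha, fell in soleus (-0.88), where the groups overlapped, and stood at -0.73 in gastrocnemius (adjusted p = 0.0836), where they did not. Esrra fell in gastrocnemius (-0.52) and stood at -0.40 in soleus (adjusted p = 0.0941). The difference of the response between the muscles was not called for either (adjusted p = 0.985 and 0.983). Averaged over all its probes, Esrrb stood at -0.29 in soleus (adjusted p = 0.305) and -0.34 in gastrocnemius (adjusted p = 0.261). Within scan day 2, Ppara and Ppargc1a missed the threshold in soleus (adjusted p = 0.171 and 0.264). In gastrocnemius all 4 missed it when slide was a block (adjusted p = 0.179 for Perm1, 0.197 for Esrrb, 0.574 for Ppara and 0.606 for Esrra).

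Assembly factors, which build the complexes without staying in them, numbered 44 measured of 45 listed. In soleus 5 fell and 0 rose (11.4% called, against 5.91% of all genes, median -0.10), and in gastrocnemius 3 fell and 0 rose (6.82%, against 3.16%, median -0.14). Ndufaf4 (1110007M04Rik), a complex I assembly factor, stood at 2.97, 3.02, 2.92, 2.56 and 2.79 in control soleus and at 2.01, 2.02, 2.03, 2.07 and 1.62 after HLS. It fell by 0.90 (adjusted p = 7.60e-05), and by the same 0.90 in gastrocnemius (adjusted p = 0.000201), with no overlap in either muscle. Sdhaf4 (1110058L19Rik), which acts on the flavoprotein of complex II, fell by 0.73 and 0.61. Cox19 (2810437L13Rik), which serves copper supply to complex IV, fell by 0.71 and 0.61. Bcs1l, which inserts the Rieske protein into complex III, and Ndufaf2 (1810058I14Rik) fell in soleus (-0.51 and -0.31). The gastrocnemius values were -0.43 and -0.28, without overlap between the groups (adjusted p = 0.0668 for Bcs1l and 0.083 for Ndufaf2). Within scan day 2, limma gave -0.83 for Ndufaf4, -0.75 for Sdhaf4 and -0.64 for Cox19 in soleus (adjusted p = 0.0035, 0.0258 and 0.0459). Bcs1l and Ndufaf2 stood at -0.46 and -0.27 there and missed the threshold (adjusted p = 0.155 and 0.305). With slide as a block, which for soleus rests on 1 control and 3 HLS arrays, Ndufaf4 stood at -0.77 and Sdhaf4 at -0.62. Cox19, Bcs1l and Ndufaf2 stood at -0.30, -0.57 and -0.24 in that fit. For gastrocnemius the slide block rests on 3 control arrays and 1 HLS array, with Ndufaf4 at -0.77, Sdhaf4 at -0.53 and Cox19 at -0.46. Without soleus HLS array 1, all 10 regulators, assembly factors and ubiquinone genes called in soleus passed (highest adjusted p = 0.0477).

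Other partners of the chain gave few calls after HLS. In each muscle, 0 of 9 measured subunits and partners filed under other names, 0 of 19 genes of the tricarboxylic acid cycle and pyruvate dehydrogenase, and 0 of 9 carriers, porins and uncoupling proteins passed the threshold in limma. At an unadjusted p below 0.05 there were 0, 3 and 1 in soleus and 1, 3 and 1 in gastrocnemius. Over all 25536 genes tested there were 4567 in soleus and 3720 in gastrocnemius. In the list of carriers, porins and uncoupling proteins, the uncoupling protein gene Ucp3 stood at 1.16 in soleus (adjusted p = 0.0572) and 0.75 in gastrocnemius (adjusted p = 0.332). In soleus it passed in limma with the replicate number as a block (adjusted p = 0.0313) or slide as a random block (0.0429). It missed the threshold within scan day 2 (adjusted p = 0.193) and with scan day as a block (0.165). Of 12 measured genes for ubiquinone synthesis, Pdss1, which makes the side chain of ubiquinone, fell in both muscles (-0.44 and -0.42), but missed the threshold when slide was a block (0.801 and 0.45 as adjusted p). Mitochondrial ribosomal proteins, 75 genes kept for comparison, fell in 3 cases in soleus (4%, against 3.52% of all genes) and 7 in gastrocnemius (9.33%, against 2.01%), with medians of -0.08 and -0.13.

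Between the control muscles, where 12.6% of all genes were higher in soleus and 20.9% lower, 4 of the 9 subunits and partners under other names were higher in soleus and 0 lower, with the electron transfer flavoprotein genes Etfdh and Etfb at 0.99 and 0.67. Of 19 genes of the tricarboxylic acid cycle and pyruvate dehydrogenase, 4 were higher and 1 lower, with Idh2 at 1.69 and Mdh1 at 0.77. The ADP and ATP carriers Slc25a4 and Slc25a5 were higher at 0.32 and 0.37. Assembly factors were split, with 7 higher and 9 lower, and so were regulators, with Esrrb at 1.41 and Gabpa at 0.27 higher and Gabpb1 at -0.61 lower. Of the 75 mitochondrial ribosomal proteins, 14 were higher and 4 lower, with a median of 0.05 against 0.13 for the 80 subunit genes.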

How the data were processed

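The authors deposited linear spot intensity as Agilent Feature Extraction (version 9.1.3.1 in the headers) wrote it, detrended for background and not scaled between arrays. Per the labels' protocols, 600 ng of total RNA with spike-in RNA was labelled with Cy3. The deposited value table held the same processed intensity within 0.497% and served as an alternative. No test of the authors' own was used here.

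Spots marked as uneven or as outliers were left out (6 values of the 80 genes). Each array was divided by its 75th percentile over 43379 non-control spots, and log2 was taken. Spots of 1 probe were averaged, the brightest probe stood for a gene, and genes had to be well above background on 4 or more of the 5 arrays of some group. The 75th percentile was 385.1 to 735 and 80.75% to 93.08% of probes were well above background. Replicate arrays correlated at 0.9713 to 0.9881. Precision is limited by the number of arrays. Of the 80 genes, 78 were named through an accession and 2 through a symbol in RefSeq.

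A means model of the 4 groups over 20 arrays was fitted with limma 3.58.1 (R 4.3.3, with version 1.17.8 of data.table), with 5 contrasts, after the fit was tested on simulated data. Figures used matplotlib 3.10.9. Alternatives covered background correction, scaling, filter, probe choice, arrays used, slide, scan day and animal as a block, and each array left out. Scan day 2 alone and the 76 genes that are subunits of the complex they were filed under were added after seeing the data. The genes, the lists and the naming rule were chosen with earlier results of these data known. That rule names called genes, the ends of each complex, core subunits, isoform pairs and up to 2 genes at each end of a list, and the other list genes called after HLS are named as well. Per the labels, both muscles of 1 number within an arm came from 1 mouse. Deviations of the pair correlated over all genes at -0.345 to 0.172 in 10 mice (median 0.0335) and over the 80 genes at -0.314 to 0.597. For control and HLS arrays of 1 number, which are different mice, the ranges were -0.306 to 0.168 and -0.451 to 0.366. A planned motif, that of NRF1, is not reported here. Of the 80 genes, 1 entered the fits, counts and medians but is not reported here on its own.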

Additional observations from a re-analysis of the deposited data

Results flagged for a closer look

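Each group of 5 arrays was searched for 1 array far from the others by Dixon's gap at the 95% level, over the named genes and the complex medians. There were 21 in 276 groups of values, and chance alone gives about 5%.

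Gastrocnemius HLS array 2 was low for several genes: Atp5g1 (6.20, others 6.44 to 6.47), Ndufa9 (5.91), Ndufb3 (5.21), Ndufs5 (7.13) and Uqcrh (7.55). The median of complex V was also lowest there, at -0.303 with the others at -0.1 to -0.027. Gastrocnemius control array 5 was low for Ndufa10 (3.87), Ndufs1 (5.56) and Ndufv1 (6.13). Gastrocnemius control array 4 was high for Ndufv2 (4.87) and Uqcrc1 (6.72). Gastrocnemius control array 1 was low for Atp5h (6.69) and high for Ndufb5 (3.58), and gastrocnemius HLS array 1 was low for Sdhd (5.07).

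In soleus, control array 4 was low for Cox5b (7.01) and Ndufa7 (5.34), control array 5 was low for Cox8a (4.48), and control array 1 was high for Uqcrc2 (6.72). Control array 2 was high for Cox8c (-1.34) and Ndufb3 (6.59). HLS array 1 was low for Cox6a1 (5.55, others 6.29 to 6.58), and its slow-fibre markers also summed lowest (9.73). The part of fibre content in that value was not tested.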

How the results depend on the processing

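The 2 calls in soleus after HLS became 0 with arrays of scan day 2 only, with only the arrays compared, with scan day as a block and with slide as a block, and 1 with quantile normalization. Leaving out single arrays gave 0 to 2 calls, with a median of -0.07 to 0.03. Ndufb3 was lost in 9 of the 10 such fits (not without HLS array 2, adjusted p = 0.0412), and Ndufb5 without control array 4 (adjusted p = 0.0669), HLS array 3 (0.06) or HLS array 5 (0.0607). The 1 call in gastrocnemius, Cox6a1, was lost with normexp correction, where Ndufb10 was called instead (-0.3266, adjusted p = 0.032), and the count became 0 with the mean over all probes, no filter on dim probes, quantile normalization, and scan day or slide as a block. Leaving out single arrays gave 0 to 1, with a median of -0.10 to -0.04, and Cox6a1 was called without control array 1 only (adjusted p = 0.0439). Over all genes, the soleus count fell from 1509 to 509 (scan day 2), 710 (only the arrays compared), 784 (scan day) and 24 (slide), and the gastrocnemius count from 807 to 17 (scan day) and 10 (slide). The cause was not tested.

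With the replicate number as a block (the animal for the muscle comparisons), 1 gene was called in soleus after HLS, 0 in gastrocnemius, 23 between control muscles and 25 after HLS.

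Between control muscles the median of 0.13 became 0.2958 with median scaling and 0.2421 with scan day as a block, which left 4 calls (1402 of all genes, from 8544). Leaving out single arrays gave 20 (without soleus control 1) to 33 calls (without soleus control 4), with a median of 0.09 to 0.20. After HLS the median of 0.21 became 0.3521 with median scaling, with 43 calls, and 0.05296 with quantile normalization. Leaving out single arrays gave 22 (without gastrocnemius HLS 2) to 36 calls (without soleus HLS 5), with a median of 0.17 to 0.25. Averaged over all probes, Ndufs4 turned from 0.32 to -0.2571 between control muscles, and after HLS Nrf1 and Slc25a3 turned to -0.1786 and -0.07339. The second Ndufs4 probe was dim, at a mean level of -1.69, and gave -0.83 between control muscles. Slide as a fixed block was not run for the muscle comparisons, since no slide held both muscles. For each comparison, the count of the 80 genes called in either direction and their median otherwise kept within 1.5 times or within the spread between arrays (214 values under planned and 13 under added alternatives). Small counts of 1 direction moved: genes lower in control soleus, 1 in all, became 0 without gastrocnemius control 1 or soleus control 1, 3 or 5, 3 by the mean of probes and 7 with quantile normalization. Genes lower in soleus after HLS, 0 in all, became 3 by the mean of probes, and 1 without soleus HLS 5.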
